A study of Ovis aries with 57 samples.

Results

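Motile cilia are beating, hair-like projections of a cell, and the 43 genes described here encode their moving parts, the carriers that build them and 3 of the transcription factors that switch them on. They were taken from the deposited tables by symbol, as every gene whose name starts with DNAH, DNAI, TEKT, RSPH or IFT followed by a digit, together with FOXJ1, SPAG6, SPAG16, SPAG17, RFX2, RFX3, CCDC39 and CCDC40. They are 43 of 25174 features with an identifier, namely 27 genes of the axoneme, 13 of intraflagellar transport and the transcription factors FOXJ1, RFX2 and RFX3. HYDIN and PIFO were looked for as well and matched no row under those symbols.

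The axoneme is the microtubule core of a cilium. Dynein heavy chains (DNAH genes) and intermediate chains (DNAI genes) form the arms that make it bend, tektins (TEKT genes) stiffen the doublet microtubules, and radial spokes (RSPH genes) and the central pair apparatus (SPAG6, SPAG16, SPAG17) set the beat. CCDC39 and CCDC40 form the ruler that spaces these parts along a doublet. Intraflagellar transport moves building material along the axoneme on trains made of IFT proteins, and nearly every cell with a primary, non-motile cilium uses the same trains. In the uterus, motile cilia are carried by scattered ciliated cells among the secretory cells of the epithelium. FOXJ1 is the main activator of the motile programme, and RFX2 and RFX3 act with it on ciliary promoters.

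RNA was sequenced from 57 samples of pregnant sheep, and the labels name no genetic change or drug treatment. Luminal epithelium (LE), which lines the uterine cavity, and glandular epithelium (GE), which forms the uterine glands, were cut by laser from stained cryosections of the uterus. Both were sampled 10, 12, 14, 16 and 20 days into pregnancy, and each tissue has 4 libraries a day. Conceptuses, meaning the embryo with its membranes, were flushed from the uterus and used whole, with 5 libraries on day 12 and 4 each on days 14, 16 and 20. RNA of LE, GE and day 12 conceptuses was amplified before sequencing and RNA of later conceptuses was not. The labels do not say which LE and GE samples came from the same ewe, and LE and GE samples of day 14 alone carry numbers with the letter B. Where p-values are given they measure the spread between these samples.

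Each LE library held between 1.93 and 7.59 M exon reads, and each GE library between 1.76 and 6.37 M. Conceptus libraries held between 4.89 and 9.55 M on day 12 and between 10.42 and 14.7 M later. Levels are given in RPKM, reads per exon length and per library total, so that they can be compared between genes. Fewer genes reached 1 RPKM in LE on day 14 (4528 to 5997 per library) than on the other days (6247 to 8741). Of 11 tested luminal epithelium markers 9 were lower in GE than in LE, and 0 were higher. Of 11 tested gland secretory markers 7 were higher in GE and 2 lower, where 42.6% of all genes were higher and 12.7% lower over all days. Their summed level was lower in GE than in LE in median on days 14 and 16 (1091 against 1201 RPKM and 2859 against 3477 RPKM). In a piece of tissue, fewer cells of a type and less RNA per cell cannot be told apart.

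A transport gene was the most abundant member in LE, GE and the conceptus alike. IFT20, a train subunit that also works at the Golgi, had the highest mean of all members in each tissue, with 35.2 RPKM in LE, 29.3 RPKM in GE and 26.6 RPKM in the conceptus. It was at 7.39 RPKM or more in every LE library and at 3.06 RPKM or more in every GE library. The second highest member differed by tissue. It was the radial spoke gene RSPH9 in LE (mean 7.68 RPKM), the outer arm heavy chain DNAH5 in GE (mean 15.7 RPKM) and the transport gene IFT46 in the conceptus (mean 11.0 RPKM). DNAH5, IFT20, IFT57, IFT74 and IFT88 stood at 1 RPKM or more in all 20 GE libraries, while IFT20 alone did so in all 20 LE libraries. Many axonemal members were barely detected, and 18 members in LE, 9 in GE and 17 in the conceptus stayed under 1 RPKM in every library. No member was listed at 0 in every library of a tissue.

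**Figure D1:**
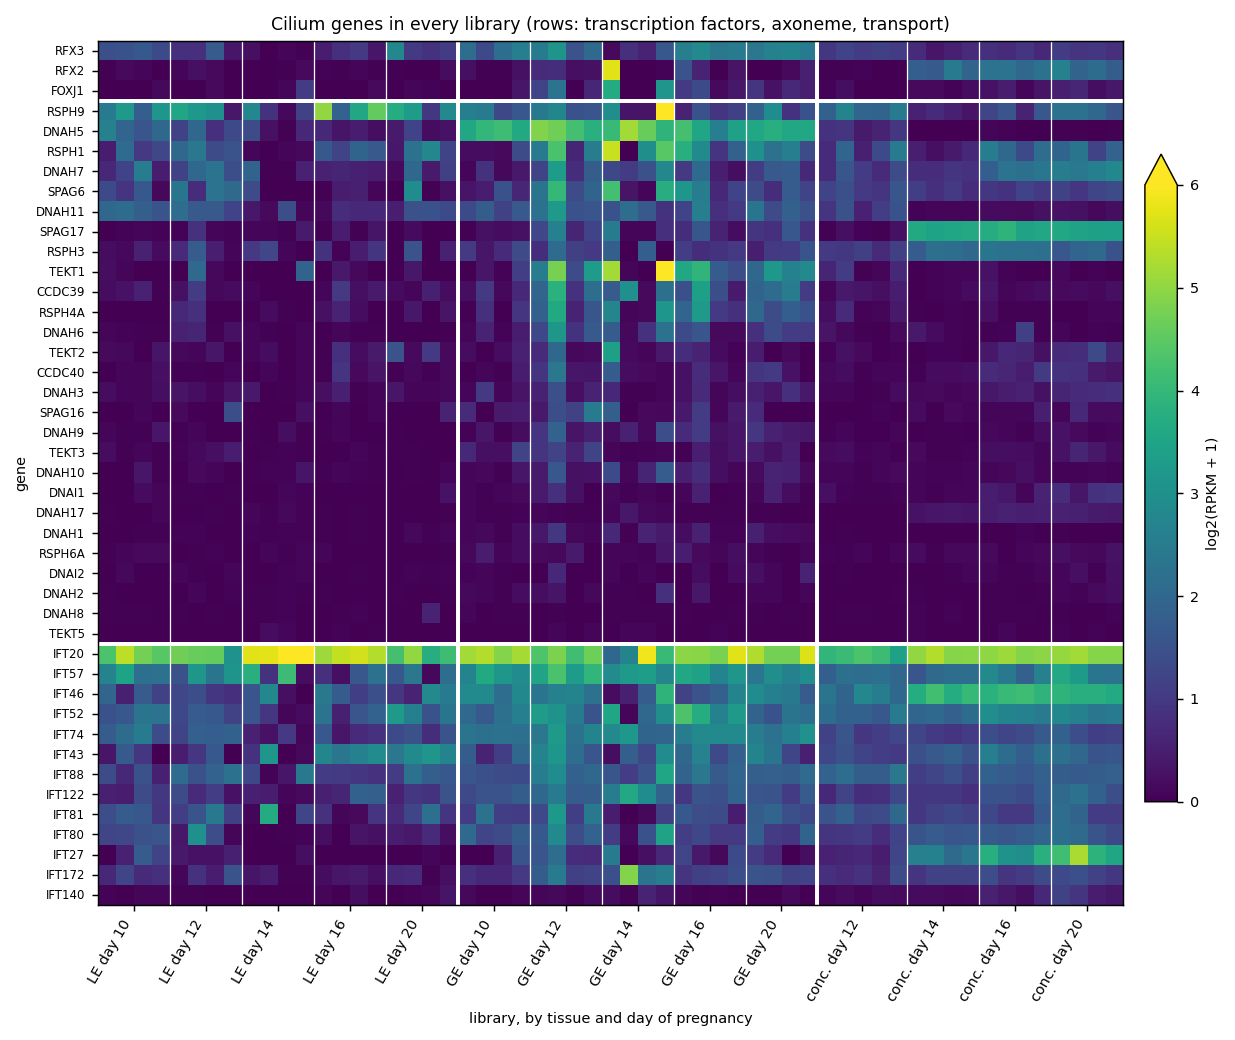
Level of each of the 43 genes (rows) in each of the 57 libraries (columns, by tissue and day), as log2(RPKM + 1) on a colour scale that ends at 6. White lines part the days, the tissues and the 3 gene classes. DNAH5 is bright in all GE columns, IFT20 in nearly all columns, and SPAG17 in the conceptus from day 14 on.

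The first comparison asked how the 2 epithelia of the uterus differ. Ciliary genes were more abundant in GE than in LE. Averaged over the 5 days, 22 of the 28 members tested were higher in GE and 0 were lower. The same call, an adjusted p under 0.05 in limma, was made in the higher direction for 42.6% of all 11131 genes tested and in the lower direction for 12.7%, so GE values ran high in general. The median log2 difference was 0.81 for the 28 members and 0.37 for all genes tested, and 22 of the 28 members lay above that median of all genes. A gene was tested if it reached 1 RPKM in at least 4 of the 40 libraries, so a member that is silent in LE was tested because of its level in GE, and the 15 members below that filter are not covered by these counts. With no filter 29 of all 43 members were higher and 0 lower, against 25.7 and 7.03% of all genes. Of the 14 axonemal members tested 11 were higher in GE, as were 9 of 12 transport members and both transcription factors.

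DNAH5, the heavy chain that drives the outer dynein arms, showed the largest difference of any member. In LE its RPKM was 5.08, 2.89, 1.98 and 3.00 on day 10, 1.22, 3.08, 0.79 and 1.49 on day 12, and 1.60, 0.20, 0.02 and 0.61 on day 14. It was 0.62, 0.27, 0.39 and 0.17 on day 16 and 0.36, 1.31, 0.15 and 0.22 on day 20. In GE it was 10.9, 14.6, 16.7 and 11.5 on day 10, 27.9, 24.9, 17.6 and 13.1 on day 12, and 15.5, 35.2, 23.5 and 13.9 on day 14. GE values of DNAH5 were 17.9, 10.5, 4.97 and 9.86 on day 16 and 11.1, 12.8, 10.8 and 10.9 on day 20. LE and GE did not overlap on any day, and over all days only the highest LE value, of day 10, passed the lowest GE value, of day 16. The mean difference was 2.96 on the log2(RPKM + 1) scale (SE 0.17, adjusted p = 5.5e-17 in limma), and it was called on each day, from 1.80 on day 10 to 3.84 on day 14. The day 10 call was lost under TMM scaling or when edgeR was run on reads recovered from the RPKM, and the other 4 days kept theirs in every setting tried.

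TEKT1, a tektin of the doublet microtubules, behaved otherwise: it was scarce in GE on day 10 and uneven afterwards. GE values were 0, 0.28, 0.04 and 1.16 RPKM on day 10, 4.80, 26.4, 1.60 and 8.77 on day 12, and 35.1, 0.06, 0 and 65.6 on day 14. They were 10.9, 14.2, 2.38 and 1.67 on day 16 and 3.03, 8.24, 5.17 and 6.30 on day 20. LE held at most 0.32 RPKM of TEKT1 apart from 3.12 in day 12 replicate 11 and 2.75 in day 14 replicate B08. On days 16 and 20 the tissues did not overlap, whereas on day 14 one pair of GE libraries held the highest TEKT1 values of all and the other pair almost none. The mean difference was 2.05 (SE 0.38, adjusted p = 1.94e-05 in limma). FOXJ1 was low throughout, and in GE it exceeded 1 RPKM in 6 of 20 libraries, with 11.9 and 7.74 RPKM in day 14 replicates B01 and B07 and 3.85 RPKM in day 12 replicate 12. In LE it was listed at 0 in 13 of 20 libraries and peaked at 1.05 RPKM in day 14 replicate B08. Its mean difference was 0.74 (SE 0.22, adjusted p = 0.00437 in limma).

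**Figure D2:**
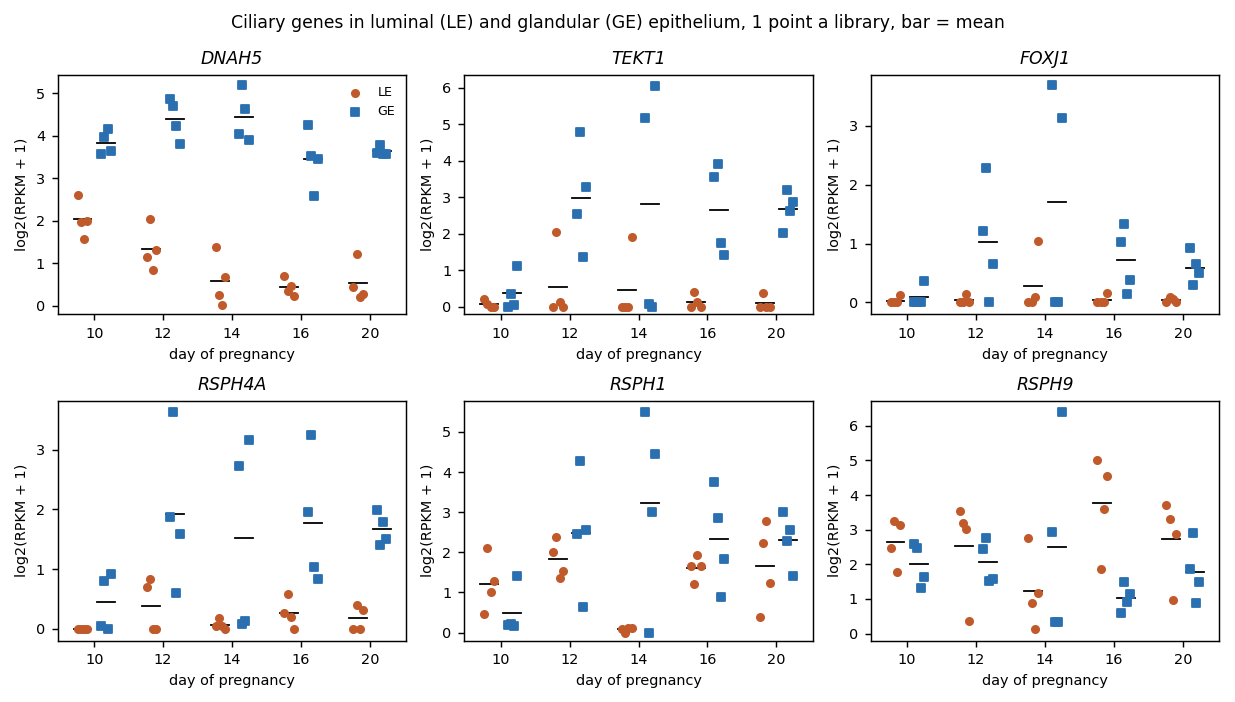
Level of 6 members, as log2(RPKM + 1), against day of pregnancy in LE (circles) and GE (squares). Each point is a library and each bar the mean of 4. DNAH5 separates the tissues on every day, TEKT1, FOXJ1 and RSPH4A are spread widely within GE, and RSPH9 lies higher in LE than in GE on day 16.

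Among the other members, the ruler subunit CCDC39 differed by 1.34 (SE 0.23), the spoke head gene RSPH4A by 1.29 (SE 0.24) and the inner arm heavy chain DNAH6 by 0.94 (SE 0.16), each higher in GE with an adjusted p of at most 1.82e-05 in limma. RFX3 differed by 1.13 (SE 0.17, adjusted p = 1.03e-06). In the transport class IFT74, a core subunit of the IFT-B train, differed by 1.29 (SE 0.16, adjusted p = 1.27e-08), and IFT122, a subunit of the IFT-A train that returns cargo to the cell body, by 1.01 (SE 0.16, adjusted p = 2.85e-06). IFT74 ranged from 2.81 to 8.35 RPKM in GE and from 0.06 to 4.51 RPKM in LE, with no gap between the tissues on day 10, where 3.58 was the lowest GE value and 4.51 the highest LE value. The 6 tested members that did not pass were TEKT2, DNAH7, RSPH9, IFT20, IFT43 and IFT81, with differences between -0.70 for RSPH9 and 0.22 for TEKT2. RSPH9 is a spoke head gene like RSPH4A, yet it ran from 0.09 to 31.4 RPKM in LE and, apart from 83.9 RPKM in day 14 replicate B07, from 0.25 to 6.64 RPKM in GE.

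Scaling set how many members passed, without turning any member called higher in GE. With TMM scaling 14 members were higher and 2 lower (IFT20 and RSPH9), against 26.2 and 20.4% of all genes. With upper quartile scaling 17 were higher and 1 lower (RSPH9), against 33.7 and 16.9% of all genes. The median of all genes moved from 0.37 to 0.09 and 0.21 under the 2 scalings, and 23 and 22 of the 28 members lay above it. DNAH5, TEKT1, FOXJ1, CCDC39, RSPH4A, DNAH6, RFX3, IFT74 and IFT122 were among 13 members that were called in all 47 alternatives tried. Without GE day 14 replicate B07, 1 member was lower in GE. Markers of immune cells also ran higher in GE: 6 of 9 tested were called higher, and their summed level was 27.7 to 153.7 RPKM in GE libraries and 6.8 to 88.1 RPKM in LE libraries. The part of these cells in the difference was not tested.

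**Figure D3:**
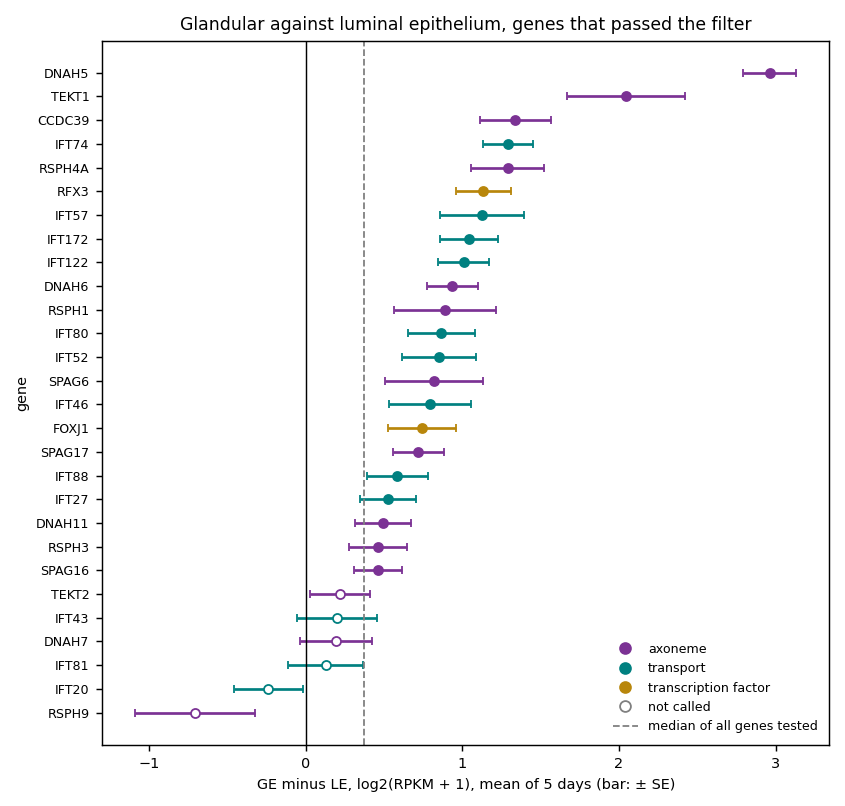
Difference of GE minus LE, in log2(RPKM + 1) averaged over the 5 days, for the 28 members tested, with bars of 1 SE from limma. Filled points passed an adjusted p of 0.05 and open points did not, colours give the gene class, and the dashed line is the median of all genes tested, 0.37. DNAH5 lies at 2.96 and TEKT1 at 2.05, and RSPH9 at -0.70 is the lowest.

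The tissues were also compared on each day. On day 10 DNAH5 was the only member called (11.6% of all genes were called higher and 2.65% lower), the 28 members had a median of 0.25 and all genes one of 0.45. On day 12, 8 members were higher (9.17% of all genes), among them DNAH6 by 1.40 (SE 0.36, adjusted p = 0.00797), CCDC39 by 1.79 (SE 0.51, adjusted p = 0.0146) and TEKT1 by 2.45 (SE 0.84, adjusted p = 0.0486) in limma. That count fell to 1, DNAH5, without GE replicate 12, to 4 without GE replicate 10 or LE replicate 15, and to 5 without LE replicate 09 or 13. On day 14, 14 members were higher (27.1% of all genes) and 1 was lower (8.75%), with a median of 1.11 for the members and 0.46 for all genes. Without GE replicate B07 the 14 became 7, and without B01 they became 8.

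The day 14 calls included RSPH1, another spoke head gene, which was listed between 0 and 0.09 RPKM in the 4 LE libraries and at 44.2, 0, 6.96 and 20.8 RPKM in GE (difference 3.15, SE 0.73, adjusted p = 0.000871). The transport genes IFT122 and IFT172 were higher in GE by 2.45 (SE 0.37) and 2.59 (SE 0.41), with adjusted p-values of 2.02e-06 and 6e-06 in limma. The member that was lower was IFT20, which stood at 52.1, 53.2, 69.4 and 104 RPKM in LE and at 3.06, 5.45, 57.2 and 15.5 RPKM in GE. Its difference was -2.43 (SE 0.49, adjusted p = 0.000164 in limma), and 1 of the 4 GE libraries lay within the LE range. On day 16, 7 members were higher (15.7% of all genes), and 1 was lower (6.76%). The lower one was RSPH9, at 31.4, 2.68, 11.2 and 22.6 RPKM in LE and 0.50, 1.83, 0.89 and 1.20 RPKM in GE. The groups did not overlap (difference -2.73, SE 0.86, adjusted p = 0.0187), and the call was lost without LE replicate 25 or 31 or GE replicate 26. On day 20 the 4 members called higher were DNAH5, IFT74, CCDC39 and TEKT1 (6.44% of all genes were higher and 4.29% lower), and 2 remained called without LE replicate 21 or 23 or any of GE replicates 020, 022 and 024.

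Genes of the same pathway under other names were also tested. Of 8 tested regulators of multiciliogenesis 5 were higher in GE over all days and 0 lower, with a median difference of 0.80. GMNC, a geminin relative that starts the programme of cells with many cilia, stood at 3.60 to 65.5 RPKM in GE libraries and at 0 to 3.85 RPKM in LE libraries. It was higher in GE by 4.17 (SE 0.25, adjusted p = 1.11e-16 in limma), and by 4.83 (SE 0.55) already on day 10. MYB, which acts early in multiciliogenesis, was higher by 1.34 (SE 0.29, adjusted p = 0.000155). CCNO, which helps multiply basal bodies, was at or near 0 in both epithelia, with at most 0.64 RPKM in any library.

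Of 12 tested genes for dynein arm assembly and docking 9 were higher in GE and 0 lower, and of 48 other axonemal genes 37 were higher and 1 lower. TTLL6, an enzyme that adds glutamate chains to axonemal tubulin, was higher by 1.57 (SE 0.13), and KIF27, a kinesin of motile cilia, by 2.33 (SE 0.23), with adjusted p-values of 2.01e-12 and 4.53e-11 in limma. Of 14 other transport genes 7 were higher and 0 lower, among them DYNC2H1, the motor chain of the returning train, by 0.97 (SE 0.15, adjusted p = 1e-06). Of 31 genes of the primary cilium and the BBSome 17 were higher and 2 lower. These shares were read beside the 42.6% of all genes that were higher. The same filter applied to these lists, so a gene that is silent in LE was tested because of its level in GE. In the fit of LE alone 5 of the dynein arm genes and 23 of the other axonemal genes passed the filter.

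The second comparison followed each epithelium through pregnancy. In GE no member changed between days 10 and 12 by limma, edgeR on recovered reads or any other setting tried (0.179% of all genes rose and 0.348% fell). At an unadjusted p under 0.05 limma had 9 members higher, all axonemal, and 0 lower, where 8.26% of all genes were under that p in either direction. Of 27 tested members 25 had a positive change, with a median of 0.78 beside 0.04 for all genes. A gene was tested if it reached 1 RPKM in at least 4 of the 20 GE libraries. Members near 0 on day 10 were thus tested because of their level on later days, which favours a rise. With no filter the median was 0.51 for all 43 members and 0 for all genes. Among the 27 tested members DNAH6 had the smallest p, with 0.08, 0.49, 0.04 and 0.39 RPKM on day 10 and 1.48, 8.04, 0.85 and 2.19 RPKM on day 12. All 4 day 12 values lay above the day 10 values (change 1.46, SE 0.48, adjusted p = 0.279). TEKT1 did not overlap between these days either (change 2.61, SE 1.05, adjusted p = 0.438 in limma). How many of all genes did not overlap between these days was not counted. The count of axonemal members at 1 RPKM or more was 4, 5, 4 and 7 of 27 in the libraries of day 10 and 11, 19, 7 and 14 of 27 in those of day 12. Of all genes, 7152 to 8861 reached 1 RPKM in the libraries of day 10 and 8210 to 8782 in those of day 12. The summed level of the luminal epithelium markers in GE was 2.8 to 12.1 RPKM on day 10 and 18.9 to 40.8 RPKM on day 12, against 1624 to 5457 RPKM in LE of day 12. That of the gland secretory markers in GE went from 5407 to 11299 RPKM on day 10 to 640.7 to 1246 RPKM on day 12. The part of either in these values was not tested. The same axonemal count ranged from 4 to 16 on day 14, from 4 to 13 on day 16 and from 9 to 11 on day 20.

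The members that did change in GE did so into or out of day 14. LE and GE samples of that day alone carry the letter B, and what it stands for cannot be told apart from the day. RFX3 fell from 4.48, 7.62, 1.89 and 3.12 RPKM on day 12 to 0.11, 0.78, 0.51 and 2.10 RPKM on day 14, with 1 of the day 14 libraries above the lowest day 12 value (change -1.48, SE 0.39, adjusted p = 0.0138 in limma). It rose again to 4.88, 6.10, 4.24 and 4.68 RPKM on day 16, where no library overlapped with day 14 (change 1.77, SE 0.39, adjusted p = 0.00448). The transport gene IFT81 fell from day 12 to day 14 (change -1.59, SE 0.44, adjusted p = 0.0188), and these 2 members were the only ones called in that step (6.29% of all genes rose and 9.68% fell). Both falls were lost without day 12 replicate 12, and that of IFT81 without replicate 16 and with edgeR as well, while 1 member rose in this step without day 14 replicate B01 or B07.

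From day 14 to day 16 RFX3 was the only member that rose in GE (12.6% of all genes), and IFT122 and IFT172 fell (4.89%). IFT122 went from 4.81, 11.4, 6.57 and 2.74 to 0.92, 1.90, 1.74 and 2.77 RPKM, so the lowest day 14 library lay just under the highest of day 16 (change -1.29, SE 0.37, adjusted p = 0.0207 in limma). IFT172 had 1.77, 28.5, 3.94 and 4.87 RPKM on day 14 and 0.88, 1.21, 1.32 and 1.73 RPKM on day 16 (change -1.62, SE 0.50, adjusted p = 0.03). The IFT122 call was lost without day 16 replicate 26, and the IFT172 call without day 14 replicate B03 or day 16 replicate 26, 28 or 30, while 2 members rose without day 14 replicate B01 or B05. In the same step out of day 14, 4 of 9 stromal markers and 1 of 3 endothelial markers fell in GE and 0 rose, with summed endothelial markers at 29.0 to 106.4 RPKM on day 14 and 10.2 to 24.7 RPKM on day 16. The stromal sum was 173.5 to 420.3 RPKM on day 14 and 107.5 to 154.3 RPKM on day 16, and the part of these cells was not tested. No member passed from day 16 to day 20. Over all days 3 members, RFX3, IFT172 and IFT122, varied in GE by limma's F test, or 3 of 27 tested, where 23.5% of all genes did. That count ran from 1 to 5 as single libraries were left out. It was 1 without day 10 replicate 02, 06 or 08, day 16 replicate 26, 28 or 30, or day 20 replicate 022 or 024, and it was 5 without day 14 replicate B07.

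In LE 17 members could be tested. No member passed from day 10 to day 12 or from day 16 to day 20, with limma or edgeR, and as in GE the changes lay around day 14. Here too the day cannot be told apart from the letter B. From day 12 to day 14 IFT20 rose from 24.8, 23.3, 22.8 and 7.39 to 52.1, 53.2, 69.4 and 104 RPKM, without overlap (change 1.85, SE 0.45, adjusted p = 0.0102 in limma; 3.39% of all genes rose). RSPH1 fell from 3.01, 4.23, 1.58 and 1.88 to 0.07, 0, 0.08 and 0.09 RPKM (change -1.74, SE 0.47, adjusted p = 0.019; 9.76% of all genes fell). On day 16 it was back at 2.16, 1.33, 2.81 and 2.18 RPKM (change 1.54, adjusted p = 0.0341; 11% of all genes rose). IFT74 fell into day 14 (change -1.20, adjusted p = 0.0436) and RSPH9 rose out of it (change 2.53, adjusted p = 0.0344).

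The IFT20 rise in LE stayed past the threshold whichever library was left out and under every other setting, and the RSPH1 fall was lost only without day 12 replicate 11. IFT74 was lost without day 12 replicate 11, 13 or 15 or day 14 replicate B04 or B08, and with TMM scaling or edgeR. The count of members that fell was 1 without day 12 replicate 11 or 13 or day 14 replicate B04, and 4 without day 14 replicate B02. The rises into day 16 were lost without any of several libraries, RSPH1 without day 14 replicate B06 or day 16 replicate 25, 29 or 31, and RSPH9 also without B04 or B08, and both were lost with TMM scaling. The median of all genes moved by -0.34 into day 14 and by 0.49 out of it, and by -0.17 and 0.20 with TMM scaling. The 17 members had a median of -0.84 into day 14. Of 10 stromal markers 2 fell and 0 rose in LE out of day 14, with sums of 294.9 to 648.9 RPKM on day 14 and 44.8 to 106.8 RPKM on day 16, and their part was not tested. Over all days DNAH5 varied in LE by limma's F test (adjusted p = 0.0114). Its highest LE value was of day 10, and its values of days 10 and 12 overlapped. It was among 8 of 17 members that varied over all days in that test (23.8% of all genes). That count was between 4 and 8 when 1 library was left out: it was 4 without day 10 replicate 01, 03 or 05, day 14 replicate B04 or B08, or day 16 replicate 29 or 31, and 5 without day 10 replicate 07, day 12 replicate 11, day 14 replicate B06 or day 16 replicate 25 or 27.

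The difference between the tissues in a step was tested directly. From day 12 to day 14 the change of IFT20 was 2.69 lower in GE than in LE on the log2 scale (-2.69, adjusted p = 0.0266 in limma; 0.773% of all genes, and 1.84% in the other direction). From day 14 to day 16 the change of IFT122 was lower in GE (-2.19, adjusted p = 0.0113; 3.15% of all genes), where LE went from 0.43, 0.37, 0.05 and 0.12 to 0.43, 0.53, 2.63 and 2.50 RPKM. The IFT122 call was kept in all 22 alternatives, and the IFT20 call was lost without LE day 12 replicate 15, GE day 12 replicate 12 or 16, GE day 14 replicate B01 or B03, and with edgeR. No other member differed between the tissues in any of the 4 steps in this test with all libraries. Without 1 library, 1 member passed as higher in GE in the step into day 14 (without GE replicate B01 or B03) and in the step out of it (without LE replicate B04 or GE replicate B05 or B07). In the latter step 2 or 3 members passed as lower without LE replicate B02 or 27 or GE replicate B01, B03 or B05.

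The next question was which members varied along with TEKT1 from GE library to GE library of the same day. Deviations from the day mean on the log2(RPKM + 1) scale were compared with those of TEKT1 over the 20 GE libraries, for 26 members, with permutations of the libraries within each day and Benjamini-Hochberg adjustment over the 26. For 10 members the adjusted p of Pearson's r was under 0.05, 7 of 12 axonemal, 2 of 12 transport and 1 of 2 transcription factors, and for 8 both r and Spearman's rho passed. The same 10 had an unadjusted permutation p under 0.05 with a positive r, as did 2.3% of the 10048 other genes tested in GE, members included. Adjusted over all of those genes, no gene passed, and the lowest value was 0.0502. The median r was 0.70 for axonemal and 0.19 for transport members, and -0.06 for all those genes. DNAH6 followed TEKT1 with r = 0.88 and rho = 0.94 (both permutation p = 1e-05, the smallest that 100000 permutations can give, adjusted p = 0.00026). RSPH4A had r = 0.91 and rho = 0.86 (permutation p = 0.00069 and 0.00235, adjusted p = 0.00897 and 0.0305). FOXJ1 had r = 0.92 and rho = 0.79 (permutation p = 0.00552 and 0.0146, adjusted p = 0.0207 and 0.0473).

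The 2 libraries farthest from the median of TEKT1 were day 14 replicates B01 and B07. Without them r was 0.93 for DNAH6, 0.86 for RSPH4A and 0.79 for FOXJ1, and without all of day 14 (16 libraries) it was 0.96, 0.86 and 0.79. RSPH9 fell from r = 0.77 (rho 0.57, permutation p = 0.0156 and 0.0537, adjusted p = 0.0405 and 0.131) to 0.29, so that relation rested on those 2 libraries. DNAH5, the member with the largest tissue difference, did not follow TEKT1 within days (r = -0.27, rho = -0.17, permutation p = 0.426 and 0.573, adjusted p = 0.615 and 0.677), and its r was 0.37 without the 2 libraries. IFT74 was alike in that respect (r = 0.00, rho = 0.06, permutation p = 0.995 and 0.823, adjusted p = 0.995 and 0.892), with r = 0.30 without them.

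**Figure D4:**
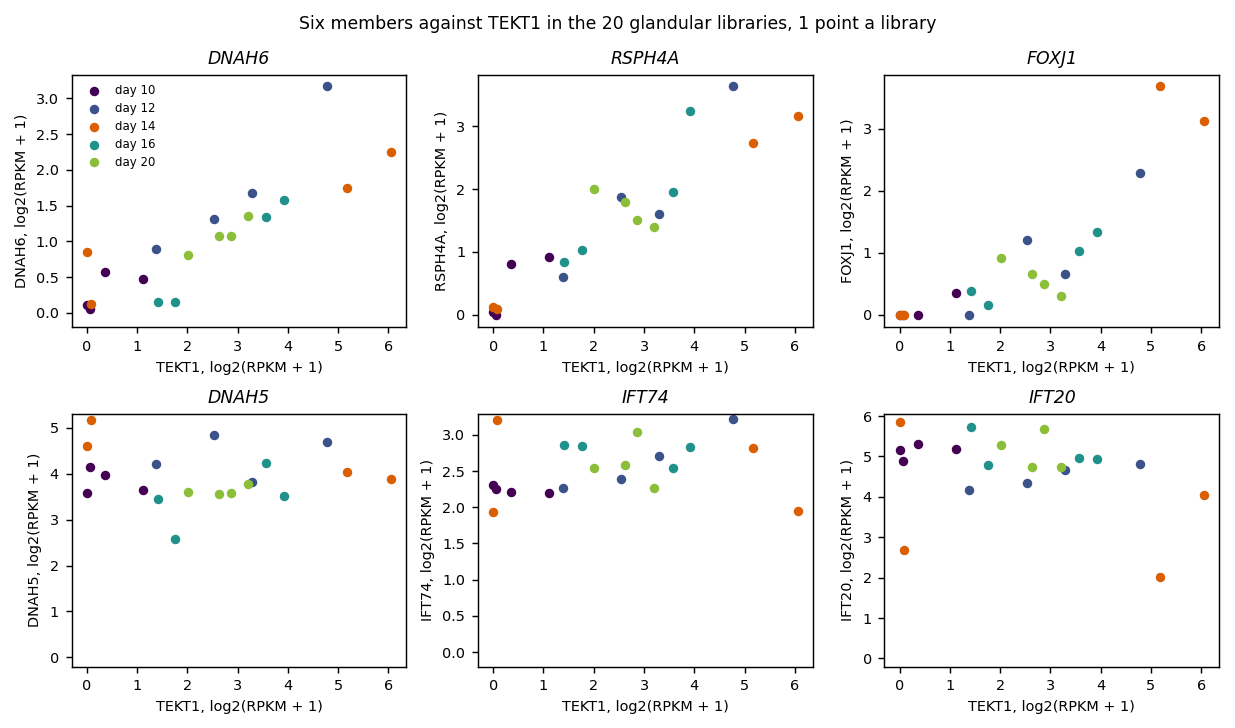
Level of 6 members against that of TEKT1 in the 20 GE libraries, both as log2(RPKM + 1), with a colour for each day of pregnancy. DNAH6, RSPH4A and FOXJ1 rise along with TEKT1 (within-day r of 0.88, 0.91 and 0.92). DNAH5 and IFT74 stay level, and IFT20 is lowest in 3 of the day 14 libraries.

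The third comparison followed the conceptus, which elongates and then forms membranes and an embryo over these days. TEKT1 and DNAH5, which mark ciliated cells, were at or near 0 here from day 14 on, while the transport genes were well represented. The 13 transport members summed to 71.8 to 86.4 RPKM per library on day 16, beside 55.9 to 93.5 RPKM in GE and 52.2 to 62.5 RPKM in LE. The 27 axonemal members summed to 24.5 to 30.7 RPKM on that day, with SPAG17 as the largest contributor in the conceptus. Their sums were 16.4 to 75.2 RPKM in GE and 10.5 to 36.3 RPKM in LE. In each LE library of that day 2 of the 27, RSPH9 and RSPH1, reached 1 RPKM, and RSPH9 alone reached up to 31.4 RPKM. RNA of LE and GE was amplified and that of these conceptuses was not, so amplification and tissue cannot be told apart in these sums. DNAH5 stood at 0.84, 0.91, 0.36, 0.48 and 0.92 RPKM on day 12 and at 0 to 0.08 RPKM in the 12 later libraries, and TEKT1 reached at most 0.24 RPKM in those 12. FOXJ1 stood at 0.05 to 0.15 RPKM on day 14, at 0.06 to 0.37 RPKM on day 16 and at 0.17 to 0.57 RPKM on day 20, and it did not pass the filter for testing.

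From day 14 to day 16, 10 of 34 tested members rose and 1 fell, where 25.6% of all 13918 genes rose and 24.3% fell (edgeR on gene read counts). The median change was 0.45 for the members and 0.06 for all genes. Of 19 axonemal members 8 rose and 0 fell, and of 13 transport members 2 rose and 1 fell. DNAH7, an inner arm heavy chain, went from 0.73, 0.69, 0.91 and 0.82 RPKM on day 14 to 2.44, 3.86, 3.62 and 4.11 RPKM on day 16, with a wide gap between the groups (log2 change 1.71, SE 0.24, adjusted p = 3.68e-05 in edgeR). On day 20 it stood at 4.71, 4.26, 5.02 and 6.01 RPKM (change from day 16 of 0.51, adjusted p = 0.0887). DNAH3, another inner arm chain, was at 0.08 to 0.10 RPKM on day 14, 0.21 to 0.47 RPKM on day 16 and 0.53 to 0.76 RPKM on day 20, and rose in both steps (1.50, adjusted p = 0.000527, and 0.91, adjusted p = 0.0146), of which the second was lost with edgeR on exon reads (adjusted p = 0.119).

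TEKT2, a tektin like TEKT1, was at 0 to 0.05 RPKM on day 14 and at 0.31, 0.62, 0.54 and 0.20 RPKM on day 16 (change 3.60, SE 0.77, adjusted p = 0.00127 in edgeR). RSPH1 went from 0.41, 0.19, 0.35 and 0.62 to 4.79, 3.05, 1.53 and 3.44 RPKM (change 2.56, SE 0.59, adjusted p = 0.00217), and CCDC40, the partner of CCDC39 in the ruler, rose by 2.04 (SE 0.51, adjusted p = 0.00369). None of these 3 overlapped between the days. DNAI1, an intermediate chain of the outer arm, rose by 2.14 (SE 0.68, adjusted p = 0.0159), though 1 day 16 library, at 0.06 RPKM, lay within the day 14 range of 0.03 to 0.06 RPKM. The outer arm chain DNAH9 rose by 1.61 (SE 0.60, adjusted p = 0.0346). The single fall was IFT20, from a mean of 24.1 to 17.0 CPM (CPM, reads per M reads of the TMM-scaled library; change -0.50, SE 0.16, adjusted p = 0.0174).

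DNAH7, DNAH3, TEKT2, RSPH1 and CCDC40 were called in every alternative that tested them. DNAH9 was lost without day 14 replicate 1, 2 or 4 or day 16 replicate 1, 2 or 5. The fall of IFT20 was lost without day 14 replicate 2 or day 16 replicate 5, and 2 members fell without day 16 replicate 2 or 4. From day 16 to day 20 DNAH3 was the only member that rose (18.1% of all genes; with edgeR on exon reads DNAH2 and RSPH9 rose instead) and DNAH10 and RSPH3 fell (18.9%), by 1.08 and 0.60 on the log2 scale (changes of -1.08 and -0.60, adjusted p = 0.0251 and 0.0443 in edgeR). These counts turned on single libraries: 5 members rose without day 20 replicate 5, 3 without day 16 replicate 5, and 2 without day 16 replicate 1, 2 or 4 or day 20 replicate 3 or 4. No member fell without day 16 replicate 4 or day 20 replicate 1, 3 or 5, and 1 fell without day 16 replicate 1 or 2.

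Of 48 other axonemal genes 16 rose and 1 fell from day 14 to day 16, with a median of 0.73, and of 13 regulators of multiciliogenesis 5 rose and 2 fell. Among the regulators MYB rose by 4.77 (SE 0.74, adjusted p = 9.3e-05) and E2F5, a partner of the multiciliogenesis complex, by 1.03 (SE 0.17, adjusted p = 0.000149) in edgeR. GMNC stayed at 0 to 0.77 RPKM in conceptuses of days 14 to 20. CCNO was at 0.13 to 0.19 RPKM on day 14, 0.06 to 2.30 RPKM on day 16 and 8.44 to 25.0 RPKM on day 20. In the same step 9 of 13 stromal, 5 of 6 endothelial and 7 of 12 yolk sac and endoderm markers rose and 0 fell, as did 4 of 8 immune markers. The summed stromal markers went from 170.4 to 282.2 RPKM on day 14 to 328.6 to 2102 RPKM on day 16 and 4503 to 15278 RPKM on day 20. The part of these tissues in the change of the members was not tested.

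**Figure D5:**
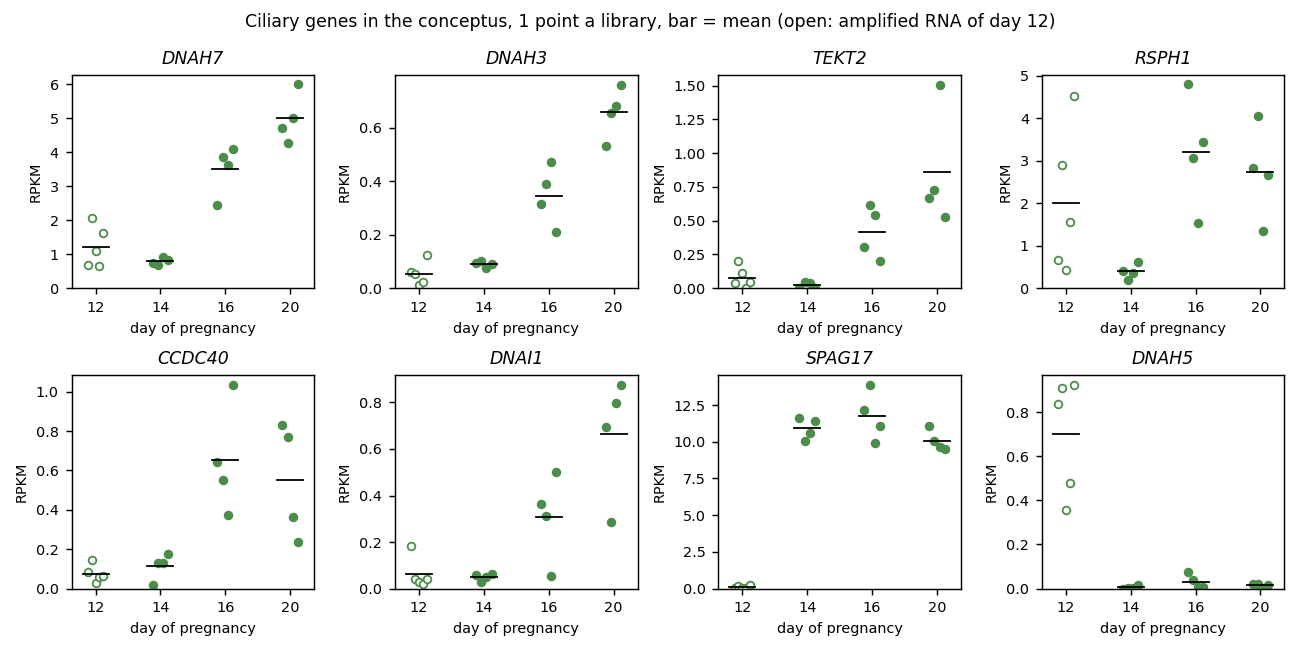
Level of 8 members in RPKM in conceptuses by day of pregnancy, 1 point a library with bars at the mean, and open points for the amplified RNA of day 12. DNAH7, DNAH3, TEKT2, RSPH1, CCDC40 and DNAI1 have higher means on day 16 than on day 14, SPAG17 is near 0 on day 12 and at 9.48 to 13.9 RPKM later, and DNAH5 is near 0 from day 14.

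The step from day 12 to day 14 coincides with the end of RNA amplification, and the deposited gene reads of day 12 also hold reads outside exons, so these cannot be told apart from a change in the conceptus. By edgeR on the deposited gene reads 24 members were lower on day 14 and 4 higher (38% and 38.1% of all genes). With limma on log2(RPKM + 1), which uses exon reads, 4 were lower and 8 higher, out of 20 tested (12% and 65.7% of all genes). The median change in that fit was -0.03 for the members and 0.94 for all genes. With edgeR on exon reads 20 were lower and 5 higher, out of 34 tested (33.1% and 41.2% of all genes). The 4 that were lower in limma, RFX3, RSPH9, RSPH1 and IFT88, were lower in all of these fits. SPAG17, a large protein of the central pair, was higher in all of them. By gene reads it went from 17.0 to 26.6 CPM on day 12 to 99.6 to 121.7 CPM on day 14, a log2 change of 2.35 (SE 0.14, adjusted p = 2.9e-10 in edgeR). By exon reads the difference was larger, from 0.02 to 0.21 RPKM on day 12 to between 9.48 and 13.9 RPKM in all later libraries, where it was the most abundant axonemal member with no call in either later step (changes of -0.33, adjusted p = 0.0719, and -0.24, adjusted p = 0.221). RFX2 had the same outline, with 0 to 0.03 RPKM on day 12 and 2.25 to 5.23 RPKM afterwards, and it was called with limma but not with edgeR on gene reads (adjusted p = 0.0799).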

How the data were processed

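RNA was sequenced from 57 sheep samples in 14 groups of 4 or 5 libraries (day 12 conceptuses), grouped by the tissue and day in the labels. The authors deposited RPKM values per gene for LE, GE and conceptus, and read counts per gene for the conceptus, against the Oar v3.1 build per the submitters' processing notes. Names of the aligner and counter were not given in the sources used here. Columns of fold change scores and p-values that the authors deposited were not used. Exon read totals of LE, GE and day 12 conceptus libraries were recovered from the RPKM, and 100% of the low values checked came out as whole reads, within 0.1 read. For later conceptuses the deposited gene reads were summed. Depth limits the precision of low levels, where 1 library can hold a few reads of a gene. The 23 features without an identifier were left out.

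LE and GE were tested with limma 3.58.1 in R 4.3.3 on log2(RPKM + 1), for genes at 1 RPKM or more in at least 4 libraries, and fold changes are on that scale, which understates changes of low genes. Conceptus counts were tested with edgeR 4.0.16 (quasi-likelihood, TMM scaling) over all days. Tests ran over all genes, two-sided, with Benjamini-Hochberg adjustment, and a call is an adjusted p under 0.05. They were tested on simulated data. Alternatives were DESeq2 1.42.0, edgeR on recovered reads, scalings, filters, a pseudocount of 0.1, a replicate block, days left out and each library left out. edgeR on conceptus exon reads was chosen after seeing the data. Correlations used 100000 permutations within days. Their background over all genes was added after seeing the data.

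The members and the lists of other genes were chosen with earlier results of these data known. Named genes are DNAH5, TEKT1 and FOXJ1, up to 6 members per direction with the largest change or smallest adjusted p, the 6 most abundant, and up to 4 genes per list by adjusted p. Other genes, CCNO and GMNC in the conceptus among them, were chosen after their values were seen. No genome of that build was used, so coordinates and sequences are not given.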

Additional observations from a re-analysis of the deposited data

Results flagged for a closer look

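Values of 16 named members were compared within groups of 4 or 5 libraries, 150 groups in all, and a single library stood apart from its group in 17 of them by Dixon's test. A group was compared only if its highest library reached 1 RPKM. A group of a barely detected member thus entered only through a high library, which favours a call. Without such a choice chance gives a call in about 1 in 20 groups. That rate does not hold for groups chosen in this way, so whether the 17 calls exceed chance cannot be told. No explanation was tested.

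In LE TEKT1 stood apart in 2 libraries, together with CCDC39 or FOXJ1. DNAH5 stood apart in neither by Dixon's test, though day 12 replicate 11 held its highest value of that day. Day 12 replicate 11 had 3.12 RPKM of TEKT1, where the others had 0 to 0.1, and 1.09 RPKM of CCDC39, where the others had 0.09 to 0.21. Day 14 replicate B08 had 2.75 RPKM of TEKT1 beside 0 in the others, and 1.05 RPKM of FOXJ1 beside 0 to 0.07. All axonemal members together summed to 30.85 RPKM in replicate 11, beside 12.91 to 26.11 RPKM in the others of its day. In B08 they summed to 6.68 RPKM, beside 2.7 to 13.86 RPKM in the others.

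Other LE libraries of days 12 and 20 stood apart as well. Replicate 15 of day 12 was low in RSPH9, at 0.3 RPKM beside 7.06 to 10.55, and in IFT20, at 7.39 RPKM beside 22.84 to 24.79. Replicate 09 of that day had 1.34 RPKM of IFT74, where the others had 2.47 to 2.63. On day 20 replicate 17 had 5.88 RPKM of RFX3 beside 0.84 to 1.08, and 0.42 RPKM of DNAH11, a heavy chain of outer dynein arms, beside 1.56 to 1.83.

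In GE the widest gap was that of RFX2 on day 14, with 52.36 RPKM in replicate B01 and 0 to 0.04 RPKM in the others. RSPH1 stood at 1.65 RPKM in day 10 replicate 08, where the others had 0.11 to 0.15. On day 16 IFT20 was at 52.51 RPKM in replicate 32 beside 26.81 to 29.98, and IFT74 at 4.83 RPKM in replicate 26 beside 6.14 to 6.25. On day 20 DNAH5 was at 12.79 RPKM in replicate 020 beside 10.83 to 11.14, and SPAG17 at 2.09 RPKM in replicate 022 beside 0.79 to 0.88.

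In the conceptus RFX2 was at 3.1 RPKM in day 16 replicate 4 beside 3.76 to 3.88, and IFT172 at 0.91 RPKM in day 14 replicate 1 beside 1.27 to 1.29.

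Of the changes between days, 2 differed between GE and LE in the direct test: that of IFT20 from day 12 to day 14 by -2.69, and that of IFT122 from day 14 to day 16 by -2.19 on the log2 scale in limma.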

How the results depend on the processing

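For named genes called with the main settings, all but 4 alternatives kept the direction. Turns of direction were not counted for named genes that were not called. The 4 were all in the conceptus step from day 12 to day 14. With limma on log2(RPKM + 1) the changes were 0.26 for IFT172, 0.39 for IFT43 and 0.65 for IFT80, and with edgeR on exon reads that of IFT20 was -0.12. Another 268 alternatives moved a named gene below the threshold and 9 above it. Depth limits what can be said of members under 1 RPKM.

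Percentages in brackets in this section are the shares of all genes with the same call in the same fit. With TMM scaling, the members higher in GE than LE numbered 14 over all days (26.2%) and 0 on day 10 (4.77%). They numbered 3 on day 12 (4.73%) and 4 on day 16 (8.89%), and 2 were lower over all days (20.4%). In LE 1 fell from day 12 to 14 (7.78%) and 0 rose from day 14 to 16 (5.95%). Out of day 14, 1 step difference was higher (1.41%). With upper quartile scaling 1 was lower in GE over all days (16.9%) and 7 were higher on day 20 (7.32%). Under that scaling 5 fell in LE into day 14 (19.3%) and 2 rose in GE out of it (20.1%). Also under it, 2 step differences out of day 14 were lower (3.06%). With a pseudocount of 0.1, 11 were higher in GE on day 16 (14.2%) and 7 on day 20 (6.44%), and 6 fell in LE into day 14 (16.6%).

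With no filter on low values 2 were higher in GE on day 10 (6.47%) and 2 on day 20 (3.25%), and 5 varied in LE over all days. From day 14 to 16, again with no filter, 0 rose in LE (3.53%) and 1 fell in GE (2.22%). In the conceptus with no filter 2 rose (12.5%) and 1 fell (12%) from day 16 to 20. Without day 14, 1 was lower in GE (13.9%). With edgeR on recovered reads 1 was lower in GE over all days (20.5%) and 2 were lower on day 14 (16.9%). Higher in GE were 0 on day 10 (2.77%) and 3 on day 12 (2.31%). With the same method 4 fell in LE into day 14 (7.04%) and 1 rose out of it (5.33%). In GE 1 rose into day 14 (9.84%) and 5 fell out of it (9.15%), and 9 varied over all days. Step differences numbered 3 higher (4.82%) and 0 lower (2.18%) into day 14 and 4 lower out of it (5.41%).

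In the conceptus, DESeq2 had 2 lower from day 14 to 16 (26.1%) and 3 higher from day 16 to 20 (21.7%). limma had 8 higher (65.7%) and 4 lower (12%) from day 12 to 14, and 0 lower from day 14 to 16 (9.46%). From day 16 to 20 limma had 2 higher (20.7%) and 1 lower (22.7%), and edgeR on exon reads had 2 higher (17.2%) and 1 lower (18.8%). With neighbouring LE and GE numbers as a block of assumed pairs, 7 were higher in GE on day 20 (6.33%). Out of day 14, 2 step differences were lower with that block (2.89%). With the sample number as a block in the conceptus 6 rose from day 14 to 16 (21.5%). From day 16 to 20, 2 rose (16%) and 0 fell (17%) with the sample number as a block. The labels do not give the pairing. Deviations of the assumed LE and GE pairs had r from -0.065 to 0.194 (median 0.054, against -0.012 for other samples of the day), and 15 of 20 correlated best with their own neighbour, a hint from the data that some are pairs. Those of conceptuses with the same number had r from -0.272 to 0.345. The causes of these moves were not tested.

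Leaving out 1 library at a time, members higher in GE than LE ranged from 21 to 22 over all days, from 1 to 8 on day 12, from 7 to 17 on day 14, from 5 to 8 on day 16 and from 2 to 3 on day 20, and stayed at 1 on day 10. Members lower ranged from 0 to 1 over all days and on day 16. In LE 1 rose and 1 to 4 fell into day 14, 0 to 2 rose out of it and 4 to 8 varied over all days. In GE 0 to 1 rose and 0 to 3 fell into day 14, 1 to 2 rose and 1 to 3 fell out of it, and 1 to 5 varied over all days. Step differences ranged from 0 to 1 in each direction into day 14, and from 0 to 1 higher and 1 to 3 lower out of it. In the conceptus 3 to 4 rose and 23 to 25 fell from day 12 to 14, 7 to 12 rose and 0 to 2 fell from day 14 to 16, and 1 to 5 rose and 0 to 3 fell from day 16 to 20.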
